A study of Mus musculus with 19 samples.

Results

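The MCM helicase and origin licensing genes were followed in RNA sequencing of small intestinal crypts, 10 genes of the 55487 listed. They were listed by name and role, with no cutoff on a measured value, and they comprise the 6 subunits of the MCM2-7 helicase (Mcm2, Mcm3, Mcm4, Mcm5, Mcm6 and Mcm7), the loading factors Cdc6 and Cdt1, and the helicase activation genes Mcm10 and Cdc45. Crypts are the epithelial pits in which intestinal stem cells and the progenitors above them divide, and they were collected from the larger, proximal part of the small intestine of 19 C57BL/6 mice, 1 library per mouse. The NT+/+ AL group held 5 wild-type mice fed ad libitum and the NT-/- AL group held 4 mice that lack neurotensin (NT), a peptide hormone of enteroendocrine cells, and were fed ad libitum. The NT+/+ Fast and NT-/- Fast groups each held 5 mice fasted for 48 hours with access to water. Females and males were mixed within the groups, and the loss of NT was present in every cell of the NT-/- mice rather than in the gut alone. The study describes its NT+/+ and NT-/- mice as carriers of the stem cell reporter Lgr5-EGFP and also kept lines without it, and the sample labels do not mention the reporter for these 19 mice.

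A replication origin is licensed before S phase, when the origin recognition complex, Cdc6 and Cdt1 place MCM2-7 rings around the DNA. The rings stay inactive until S phase, when Cdc45 and the GINS proteins join them to form the active helicase, with Mcm10 needed for the start of unwinding. Geminin, the product of Gmnn, holds Cdt1 back once replication has begun. In the small intestine these genes are used in the dividing cells of the crypt and are switched off as cells leave it for the villus.

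All 10 genes were well measured, with between 69 counts (the lowest Cdc6 value of any mouse) and 4100 counts (the highest Mcm6 value), and all 10 passed the filter on low counts. The libraries held between 9059418 and 35068669 counts on genes. Nts, which encodes NT, was between 4.98 and 8.59 CPM (counts scaled to the library total) in NT+/+ mice and between 0.144 and 0.793 CPM in NT-/- mice. In 1 mouse, NT+/+ Fast replicate 5, the title and the genotype label disagree, and its Nts level of 5.43 CPM lay in the NT+/+ range, where its title places it. Crypt markers were present in every group, with a summed level of the 5 stem cell markers between 1270 and 3300 CPM and of the 5 Paneth cell markers between 14600 and 35400 CPM. Markers of fibroblasts, smooth muscle and endothelium summed to at most 5.65, 4.12 and 2.45 CPM in any mouse, and genes of T cells to between 61.9 and 210 CPM.

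The promoters of these genes are known for binding sites of the E2F factors, which switch on S phase genes, so the stretches that carried such letters are shown for the 3 genes in which they lay before the start site and outside annotated exons. RefSeq promoter windows on GRCm38.p6, from 250 bases before to 50 bases after each start, were at hand for 9 of the 10 genes. The letters searched were TTTCCCGC, TTTCGCGC, TTTGCCGC and TTTGGCGC on both strands, and capitals mark them below. In Mcm6 and Mcm5 a match on one strand overlaps a match on the other.
Mcm6, chr1:128359725-128359835, minus strand: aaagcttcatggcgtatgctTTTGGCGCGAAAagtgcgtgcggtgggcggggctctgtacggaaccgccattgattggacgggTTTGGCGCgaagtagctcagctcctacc
Mcm5, chr8:75109336-75109387, plus strand: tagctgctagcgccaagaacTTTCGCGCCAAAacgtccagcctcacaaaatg
Cdc6, chr11:98907993-98908040, plus strand: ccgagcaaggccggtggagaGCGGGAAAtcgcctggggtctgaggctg
The Cdc6 stretch lies before the RefSeq start but inside an intron of a longer GENCODE model of the gene. Matches were found in 6 of the 10 entries, 1 entry each of Mcm3, Mcm5, Mcm6, Mcm7, Cdc6 and Cdt1, and 2.26% of all 32851 promoter entries held one. Of the other replication genes listed here, 15 of the 47 with an entry held a match. Mcm2, Mcm10 and Cdc45 had none in these windows, and CCAAT, searched on both strands, was in 8 of the 10 entries (Mcm7 has more than 1) and in 37.4% of all entries. TTTGAA, the core of the cell cycle homology region, was in 2 of the 10 entries, those of Mcm2 and Cdc45, and in 17.9% of all. A match is a description of the letters and not evidence of binding in these crypts.

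Per kilobase of effective length, the fed crypts held more Mcm7 and Mcm6 than any of the other 8 genes. In NT+/+ AL mice Mcm7 was 55.8 ± 9.35 and Mcm6 47.9 ± 5.61 CPM per kilobase (SD, n = 5), and these neighbours overlapped between mice. Mcm5 followed at 32.9 ± 4.18, and Mcm3, Mcm2, Mcm10, Mcm4 and Cdt1 then lay between 24.6 ± 4.08 and 18.5 ± 2.07 with ranges that overlapped from each gene to the next. Cdc45, the helicase cofactor, was at 10.4 ± 1.49 and Cdc6, the ATPase that recruits the ring, at 6.55 ± 1.02 CPM per kilobase, and Cdc6 was below Cdc45 in every group's range. The order in NT-/- AL mice was the same except that Mcm10 and Mcm2, which overlapped, changed places. Mcm7 is the least certain of these levels. Its exons share 321 of 4426 annotated bases with Ap4m1 and 64 with Cops6, both on the opposite strand, its counts were not whole numbers in 19 of 19 mice because RSEM divided reads, and whether reads were counted by strand is not given in the sources used here. Cdc45 likewise shares 209 of 3506 exon bases with Ufd1 on the opposite strand. Cdt1 lies inside the span of the read-through gene Gm20388 and shares 0 exon bases with it.

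**Figure D1:**
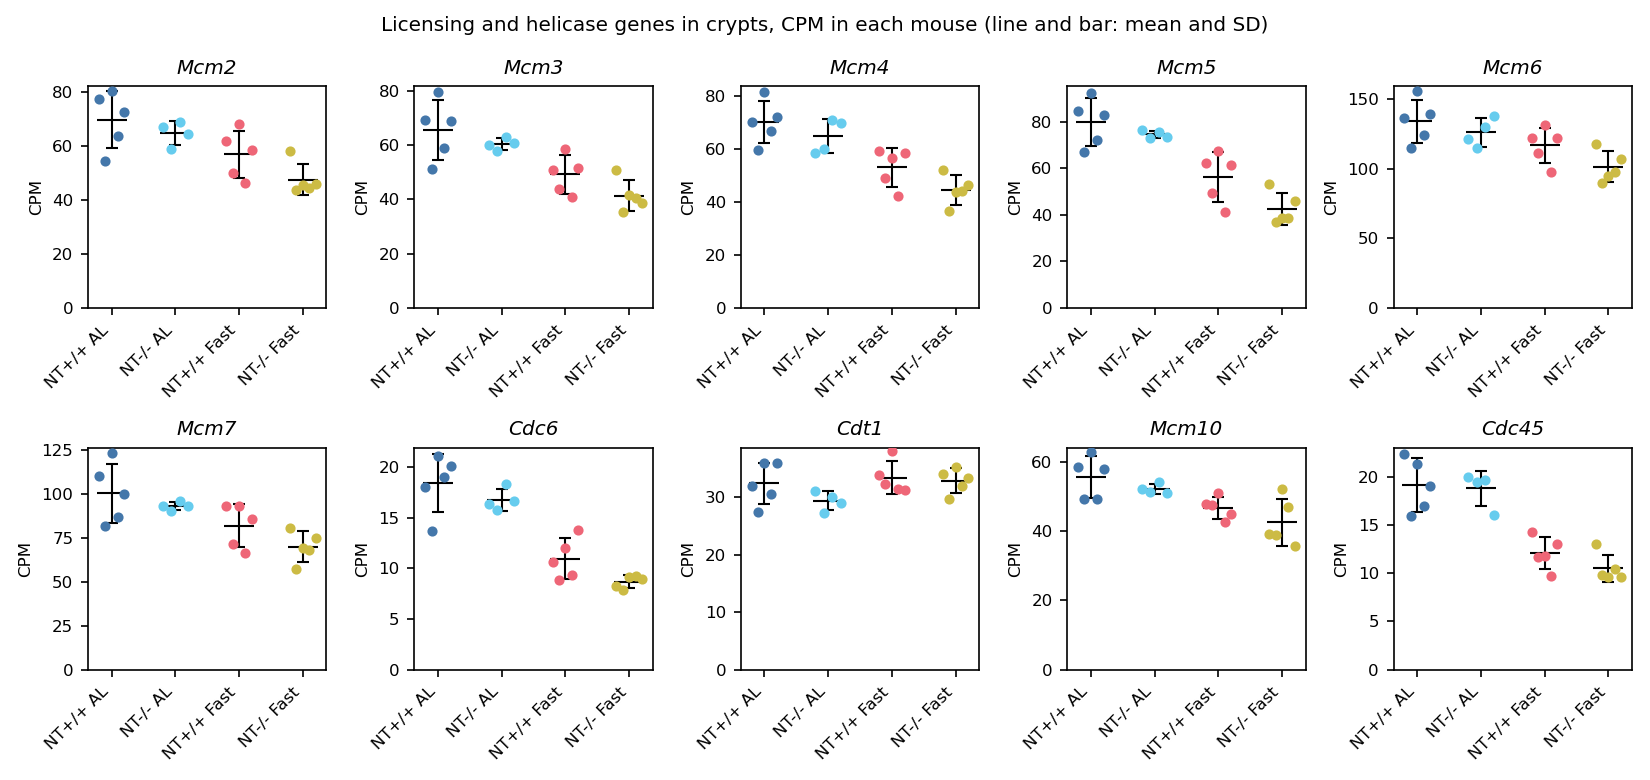
Level of each of the 10 genes in CPM (counts scaled to the TMM-adjusted library total, y axis from 0) in every mouse, by group (x axis). Each point is 1 mouse, with the group mean as a line and the SD as a bar. For 9 genes the means of the fasted groups sit lower than the fed groups of the same genotype, while Cdt1 lies between 27.3 and 38.1 CPM in all 4 groups.

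Most of the set was lower in fasted than in fed crypts of both genotypes. In NT+/+ mice 5 of the 10 genes fell (Mcm3, Mcm4, Mcm5, Cdc6 and Cdc45) and 0 rose at an edgeR adjusted p under 0.05, where 10.4% of the 17875 genes tested fell. In NT-/- mice 9 of the 10 fell, every gene but Cdt1, where 12.6% of all genes fell. The median log2 fold change of the 10 genes was −0.35 in NT+/+ mice and −0.49 in NT-/- mice, against −0.01 and −0.02 over all genes. In NT+/+ mice the count of 5 was the lower end of what the fits gave. A number in the sample titles and another in the file names link mice across groups. With the first as a replicate block 8 of the 10 genes were called lower, and 2517 of all 17875 genes were. With the second it was 9 of the 10, and 2801 of all genes, against 1852 of all genes without a block. In either direction the blocks called 28% and 30.7% of all genes, against 21.6% without a block. The 5 genes that fell without a block had log2 fold changes between −0.40 and −0.75, and the 4 that joined them under the second block, Mcm2, Mcm6, Mcm7 and Mcm10, had changes between −0.20 and −0.29. Without 1 mouse, NT+/+ AL replicate 2, the count was 8 with no block, where 1741 of 17715 genes were called lower.

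Of the MCM2-7 subunits Mcm5 changed most. In NT+/+ AL mice Mcm5 was 84.6, 67.2, 92.5, 72.3 and 82.8 CPM, and in NT+/+ Fast mice 62.2, 49.2, 67.4, 41.3 and 61.5 CPM. The NT-/- AL mice had 76.3, 73.1, 75.5 and 73.5 CPM and the NT-/- Fast mice 53.3, 37.0, 38.7, 38.7 and 45.8 CPM. In NT-/- mice all fasted values lay below all fed values, whereas in NT+/+ mice the highest fasted mouse reached just past the lowest fed one. The log2 fold change of Mcm5 with fasting was −0.50 (SE 0.12, edgeR adjusted p = 0.00597) in NT+/+ mice, where Mcm5 fell by 29.4%. In NT-/- mice it was −0.80 (SE 0.13, edgeR adjusted p = 0.000187), where it fell by 42.6%. Mcm5 pairs with Mcm2 at the gap through which the ring opens to take in DNA.

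Mcm3, which sits beside Mcm5 in the ring, was 69.2, 51.0, 79.5, 59.0 and 69.0 CPM in NT+/+ AL mice and 50.9, 43.8, 58.7, 40.7 and 51.7 CPM in NT+/+ Fast mice. In NT-/- AL mice it was 60.0, 57.9, 63.1 and 60.9 CPM, and in NT-/- Fast mice 50.8, 35.3, 41.7, 40.5 and 38.6 CPM. The fed and fasted groups did not overlap in NT-/- mice, and in NT+/+ mice 1 fed mouse, replicate 2, lay among the fasted values. Mcm3 fell with fasting by 0.41 on the log2 scale in NT+/+ mice (SE 0.12, edgeR adjusted p = 0.0141) and by 0.54 in NT-/- mice (SE 0.12, edgeR adjusted p = 0.00281).

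Mcm4, part of the Mcm4-6-7 core that carries helicase activity, was 70.3, 59.8, 81.5, 66.8 and 72.2 CPM in NT+/+ AL mice and 59.1, 49.0, 56.5, 42.2 and 58.6 CPM in NT+/+ Fast mice. Crypts of NT-/- AL mice held 58.4, 60.1, 71.0 and 69.8 CPM and those of NT-/- Fast mice 52.2, 36.5, 43.8, 44.2 and 46.4 CPM. Mcm4 was the one ring subunit in which fed and fasted mice did not overlap in either genotype. Its log2 fold change was −0.40 (SE 0.11, edgeR adjusted p = 0.0100) in NT+/+ mice and −0.53 (SE 0.11, edgeR adjusted p = 0.00169) in NT-/- mice.

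Mcm2, the subunit that also holds parental histones at the fork, was 77.6, 54.6, 80.4, 63.8 and 72.7 CPM in NT+/+ AL mice and 61.9, 50.2, 68.1, 46.3 and 58.6 CPM in NT+/+ Fast mice. It was 67.3, 58.9, 68.9 and 64.4 CPM in NT-/- AL mice and 58.1, 43.7, 45.7, 44.7 and 46.1 CPM in NT-/- Fast mice. The groups overlapped in NT+/+ mice and narrowly did not in NT-/- mice, where the highest fasted value belonged to 1 mouse that stood apart from the other 4. The log2 fold change was −0.29 (SE 0.11, edgeR adjusted p = 0.0735) in NT+/+ mice, which missed the threshold (adjusted p = 0.0101 with the block of the titles and 0.0114 with that of the file names), and −0.44 (SE 0.12, edgeR adjusted p = 0.0105) in NT-/- mice.

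Mcm7, also of the helicase core, was 110, 81.8, 123, 86.5 and 100 CPM in NT+/+ AL mice and 92.8, 71.2, 93.3, 66.4 and 85.7 CPM in NT+/+ Fast mice. In NT-/- mice it was 93.2, 90.4, 96.1 and 92.8 CPM fed and 80.5, 57.3, 68.9, 67.8 and 74.9 CPM fasted. Here too the groups overlapped in NT+/+ mice and not in NT-/- mice. Mcm7 had a log2 fold change of −0.29 (SE 0.11, edgeR adjusted p = 0.0769, and 0.0121 and 0.0106 with the respective blocks) in NT+/+ mice and −0.41 (SE 0.12, edgeR adjusted p = 0.0171) in NT-/- mice.

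Mcm6 had the smallest change of the ring. It was 136, 115, 156, 124 and 139 CPM in NT+/+ AL mice and 122, 111, 131, 97.7 and 122 CPM in NT+/+ Fast mice. The values were 121, 115, 130 and 138 CPM in NT-/- AL mice and 118, 89.9, 95.1, 97.4 and 107 CPM in NT-/- Fast mice. Fed and fasted mice overlapped in both genotypes, in NT-/- mice through 1 fasted mouse. Mcm6 had a log2 fold change of −0.20 (SE 0.09, edgeR adjusted p = 0.141) in NT+/+ mice and −0.31 (SE 0.10, edgeR adjusted p = 0.0261) in NT-/- mice. The latter call was lost when any 1 of NT-/- AL replicates 3 and 4 or NT-/- Fast replicates 2, 3 and 4 was left out (edgeR adjusted p between 0.0522 and 0.0859). It was also lost when the mouse whose labels disagree was grouped as NT-/-, against its Nts level (edgeR adjusted p = 0.0669).

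The loading factors Cdc6 and Cdt1, which act at the same step, behaved differently. Cdc6 was 18, 13.7, 21.1, 19 and 20.1 CPM in NT+/+ AL mice and 10.6, 8.87, 12, 9.37 and 13.8 CPM in NT+/+ Fast mice. It was 16.3, 15.7, 18.3 and 16.6 CPM in NT-/- AL mice and 8.22, 7.83, 9.14, 9.27 and 8.98 CPM in NT-/- Fast mice. Only NT+/+ AL replicate 2 and NT+/+ Fast replicate 5 met at the edge of their groups, and in NT-/- mice a wide gap separated fed from fasted crypts. Cdc6 had the largest change of the 10 genes in both genotypes. It fell by 40.3% in NT+/+ mice (log2 fold change −0.75, SE 0.12, edgeR adjusted p = 0.000291) and fell by 48.1% in NT-/- mice (log2 fold change −0.95, SE 0.13, edgeR adjusted p = 4.41e-05).

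Cdt1 was 32.0, 27.5, 35.9, 30.6 and 36.0 CPM in NT+/+ AL mice and 33.8, 32.3, 38.1, 31.5 and 31.2 CPM in NT+/+ Fast mice. In NT-/- AL mice Cdt1 was 31.1, 27.3, 30.1 and 28.9 CPM and in NT-/- Fast mice 34.1, 29.7, 35.2, 32.0 and 33.4 CPM. Fed and fasted values overlapped throughout in NT+/+ mice, whereas in NT-/- mice 4 of the 5 fasted mice lay above every fed mouse. The log2 fold change was 0.04 (SE 0.08, edgeR adjusted p = 0.745) in NT+/+ mice, where its sign turned to −0.01 without NT+/+ AL replicate 2 or without NT+/+ Fast replicate 3, and 0.16 (SE 0.09, edgeR adjusted p = 0.174) in NT-/- mice. Within a mouse the ratio of Cdt1 to Cdc6 per length was 2.84 ± 0.235 (SD, n = 5) in NT+/+ AL and 5.0 ± 0.826 (SD, n = 5) in NT+/+ Fast mice. It was 2.81 ± 0.172 (SD, n = 4) in NT-/- AL and 6.07 ± 0.401 (SD, n = 5) in NT-/- Fast mice. In this ratio the fasted mice lay above all fed mice of their genotype. Cdt1, at rank 8 of the 10 genes per kilobase in fed crypts of both genotypes, was at rank 5 in NT+/+ Fast and rank 3 in NT-/- Fast crypts, where Cdt1, Mcm10 and Mcm5 overlapped. The means of Mcm2, Mcm3 and Mcm4 lay above that of Cdt1 in fed crypts and below it in fasted crypts.

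Of the helicase activation genes, Cdc45 followed Cdc6 closely in the size of its change. Cdc45 was 22.4, 15.9, 21.4, 17.0 and 19.1 CPM in NT+/+ AL mice and 14.3, 11.7, 11.8, 9.77 and 13.0 CPM in NT+/+ Fast mice. Its values were 20.0, 19.5, 19.7 and 16.1 CPM in NT-/- AL mice and 13.0, 9.87, 9.66, 10.4 and 9.62 CPM in NT-/- Fast mice. With Mcm4 it was a gene whose fed and fasted mice did not overlap in either genotype. Cdc45 had a log2 fold change of −0.66 (SE 0.12, edgeR adjusted p = 0.000662) in NT+/+ mice and −0.84 (SE 0.13, edgeR adjusted p = 0.000103) in NT-/- mice.

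Mcm10, which is no part of the ring despite its name, was 58.6, 49.3, 62.9, 49.4 and 57.9 CPM in NT+/+ AL mice and 47.8, 47.6, 51.1, 42.7 and 45.1 CPM in NT+/+ Fast mice. It was 52.3, 51.3, 54.4 and 51.0 CPM in NT-/- AL mice and 39.2, 38.9, 52.2, 47.0 and 35.8 CPM in NT-/- Fast mice. The groups overlapped in both genotypes. The log2 fold change was −0.25 (SE 0.09, edgeR adjusted p = 0.0639, and 0.0279 and 0.0209 with the respective blocks) in NT+/+ mice and −0.29 (SE 0.10, edgeR adjusted p = 0.0347) in NT-/- mice. The call in NT-/- mice was lost without any 1 of the 4 NT-/- AL mice or of NT-/- Fast replicates 1, 2 and 5 (adjusted p between 0.0527 and 0.091), with sex as a covariate in a fit that also left out NT-/- Fast replicate 5, the mouse with no sex label (adjusted p = 0.0573), and when only the groups compared were fitted (adjusted p = 0.0617).

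Over the 10 genes, fed and fasted mice did not overlap for 2 genes in NT+/+ mice (Mcm4 and Cdc45), where 6.97% of all genes were lower without overlap, and for 7 in NT-/- mice (Mcm2, Mcm3, Mcm4, Mcm5, Mcm7, Cdc6 and Cdc45), where 10.8% were. When mice were matched by the number in the file names, each of the 9 genes other than Cdt1 was lower in the fasted mouse of all 5 NT+/+ pairs and all 4 NT-/- pairs. Cdt1 was lower in 1 of the 5 and 0 of the 4 pairs. How many of all genes were lower in every pair was not counted. The same pairs serve every gene, so these counts are not independent of each other. Marker lists of crypt cells moved to different extents in the same mice. Called lower in NT+/+ and NT-/- mice were 1 and 2 of 5 stem cell, 0 and 1 of 5 Paneth cell and 1 and 2 of 5 goblet cell genes. For enteroendocrine cells it was 0 and 1 of 5, and for tuft cells 0 and 0 of 4. Called higher were 1 and 1 of 5 goblet cell and 1 and 1 of 5 enteroendocrine genes, and none of the stem, Paneth or tuft cell genes. The summed level of 5 genes of dividing cells (Mki67, Top2a, Ccnb1, Cdk1 and Birc5) was between 1390 and 1590 CPM in NT+/+ AL mice, 910 and 1220 in NT+/+ Fast mice, 1330 and 1450 in NT-/- AL mice and 780 and 1030 in NT-/- Fast mice, with 3 of 5 genes called lower in NT+/+ and 4 of 5 in NT-/- mice. Genes of enterocytes (5 of 5 detected) summed to between 2580 and 5090 CPM in NT+/+ AL mice, 4770 and 9490 in NT+/+ Fast mice, 3740 and 5500 in NT-/- AL mice and 8450 and 11600 in NT-/- Fast mice, with 3 of 5 called higher in NT+/+ and 5 of 5 in NT-/- mice. Over all 17875 genes tested, 10.4% in NT+/+ and 12.6% in NT-/- mice were called lower, and 2010 and 2242 genes were called higher. In bulk crypts, fewer cells of a type and less RNA per cell cannot be told apart, and the part of the cell makeup in the fall of the licensing genes was not tested.

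**Figure D2:**
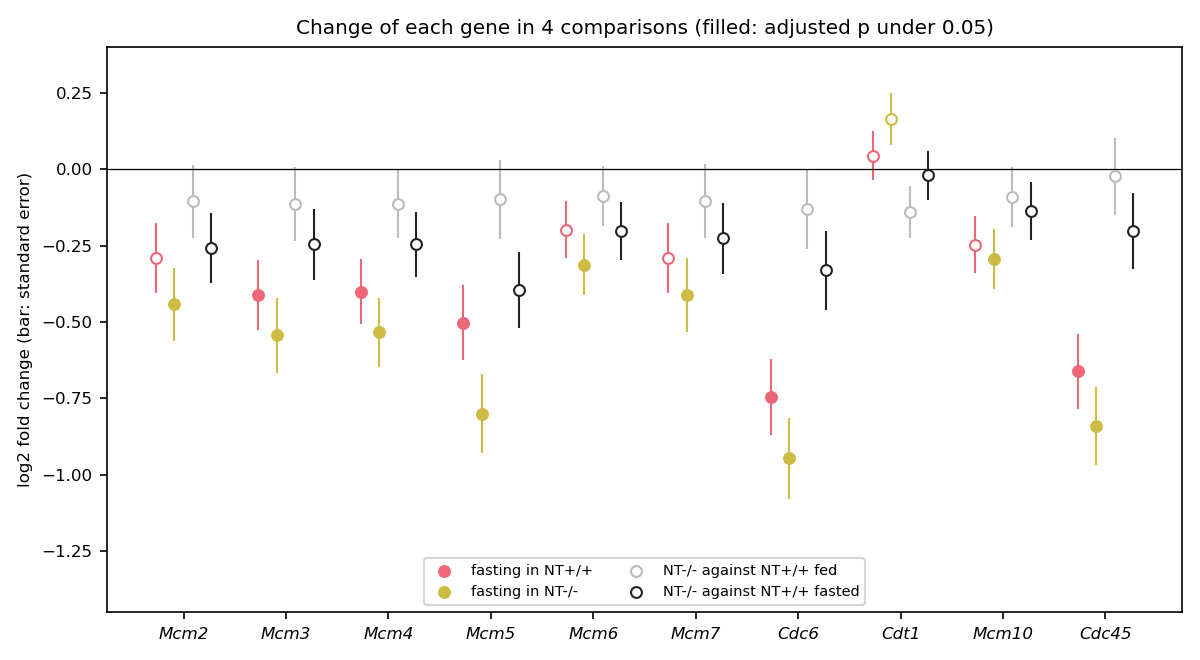
Log2 fold change (y axis, bars are standard errors) of each gene (x axis) with fasting in NT+/+ and NT-/- mice and between the genotypes in fed and fasted mice, with filled points at an edgeR adjusted p under 0.05. The filled points are the 5 genes lower with fasting in NT+/+ mice and the 9 lower in NT-/- mice, and no gene is filled in a comparison of the genotypes.

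Because the ring holds 1 copy of each subunit, the balance among the transcripts was compared within each mouse, as the share of each subunit in the summed per-length level of the 6. The shares were unequal in fed crypts, from 10.1% ± 0.423 for Mcm4 to 27.2% ± 0.98 for Mcm7 (SD, n = 5, NT+/+ AL), and were close in NT-/- AL mice, from 9.95% ± 0.667 to 27.2% ± 0.663 (SD, n = 4). With fasting the share of Mcm5 went from 16.1% ± 0.237 to 14.1% ± 0.785 in NT+/+ mice and from 16.1% ± 0.649 to 12.8% ± 0.652 in NT-/- mice. The share of Mcm6 went the other way, from 23.5% ± 0.757 to 25.7% ± 1.1 in NT+/+ mice and from 23.6% ± 1.09 to 26.5% ± 0.647 in NT-/- mice. For these 2 subunits every fasted mouse lay outside the range of the fed mice of its genotype, and for the other 4 the ranges overlapped. The ratio of Mcm6 to Mcm5 was 1.46 ± 0.038 (SD, n = 5) in NT+/+ AL, 1.82 ± 0.173 (SD, n = 5) in NT+/+ Fast, 1.47 ± 0.123 (SD, n = 4) in NT-/- AL and 2.07 ± 0.105 (SD, n = 5) in NT-/- Fast mice. Mcm5 and Mcm6 had the largest and the smallest fall of the ring, so their shares and their ratio restate those fold changes. Shares and ratios are descriptions without a test.

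**Figure D3:**
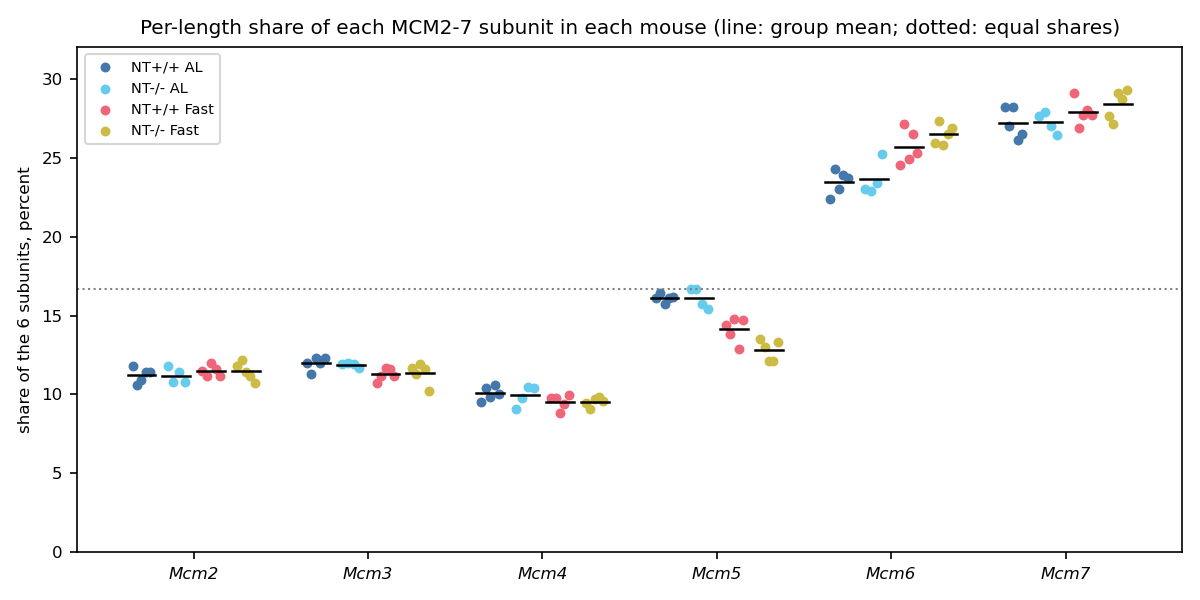
Share of each MCM2-7 subunit (x axis) in the summed per-length level of the 6 subunits in percent (y axis from 0), 1 point per mouse with the group mean as a line. Mcm5 is lower in the fasted groups (means 14.1% and 12.8%, against 16.1% and 16.1% fed) and Mcm6 is higher, while the other subunits overlap.

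In fed crypts no difference between the genotypes passed the test for these genes. In NT-/- AL against NT+/+ AL mice the log2 fold changes of the 10 genes lay between −0.14 and −0.02, 0 of 10 passed at an adjusted p under 0.05 and 0 of 10 at an unadjusted p under 0.05 (edgeR, and 0 of 10 with DESeq2's adjusted p), where 0.00559% of all genes were called, namely Nts alone, and 1.67% passed unadjusted. The standard errors leave room for changes of moderate size, such as −0.10 (SE 0.13) for Mcm5 and −0.13 (SE 0.13) for Cdc6. Fed mice of the genotypes overlapped for all 10 genes, and 0.336% of all genes were lower and 0.358% higher in NT-/- AL mice without overlap.

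In fasted mice the NT-/- crypts tended to lower values that did not pass correction. All 10 log2 fold changes of NT-/- Fast against NT+/+ Fast mice were below 0, as were 9417 of all 17875 genes. The median of the 10 genes was −0.24, against −0.01 over all genes. The number at an adjusted p under 0.05 was 0 of 10 with edgeR (0.00559% of all genes) and 0 of 10 with DESeq2's Wald test (0.548% of all genes), and 6 of 10 were lower at an unadjusted p under 0.05 (4.47% of all genes). The largest difference was in Mcm5, at −0.40 (SE 0.12, edgeR adjusted p = 0.335), followed by Cdc6, at −0.33 (SE 0.13, edgeR adjusted p = 0.412). The mouse values overlapped for all 10 genes, where 0.615% of all genes were lower without overlap. Within the pairs of the file-name number the NT-/- mouse was lower in 5 of 5 pairs for Mcm2, Mcm3, Mcm5, Mcm6 and Cdc6, in 4 of 5 for Mcm4, Mcm7 and Cdc45, in 3 of 5 for Mcm10 and in 2 of 5 for Cdt1. The same 5 pairs serve every gene, and the ring subunits varied together across mice, so these counts are not independent of each other. Pairs were not counted over all genes. The difference moved with the choice of mice and fit. The smallest adjusted p among the 10 genes, 0.335 as reported, was 0.103 with the replicate block of the titles and 0.0861 with that of the file names. Without NT+/+ Fast replicate 4 or NT-/- Fast replicate 1 the median of the 10 genes was −0.30, with smallest adjusted p of 0.172 and 0.164 and 8 genes at an unadjusted p under 0.05 each. The count of 6 at an unadjusted p was 1 when NT+/+ Fast replicate 5, the mouse whose labels disagree, was left out. It was 0 when that mouse was grouped as NT-/-, a grouping that goes against its Nts level of 5.43 CPM. It was 2 without NT+/+ Fast replicate 1 or 3 or NT-/- Fast replicate 2 or 4, and 3 without NT-/- Fast replicate 3. The unadjusted count over all genes moved too. As reported 799 were lower and 835 higher. In either direction it was 1834 without NT+/+ Fast replicate 4 and 2192 without NT-/- Fast replicate 1. It was 1127 with the mouse of disagreeing labels regrouped and 1379 without that mouse. Without NT+/+ Fast replicate 1 or 3 it was 1218 and 1972. Without NT-/- Fast replicate 2, 3 or 4 it was 1491, 1603 and 1575. Marker lists moved here too. Median log2 fold changes were −0.25 for dividing cells and −0.21 for goblet cells, each with 5 of 5 genes below 0, and 0.44 for enterocytes and 0.35 for T cells, each with 5 of 5 above 0, and 0 markers of these lists passed the adjusted test. At an unadjusted p under 0.05 (edgeR), 5 of 5 dividing cell markers were lower and 2 of 5 enterocyte markers higher. For goblet and T cell markers it was 0. Further lists had medians of −0.23 for B and plasma cells (5 of 5 below 0) and −0.20 for Paneth and −0.16 for stem cells (4 of 5 below 0 each). Enteroendocrine cells were at 0.07 (4 of 5 above 0) and tuft cells at 0.11 (4 of 4 above 0). The part of the marker lists in the difference was not tested.

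The effect of fasting itself did not differ detectably between the genotypes for any of the 10 genes. The difference of the fasting effects, NT-/- minus NT+/+, was below 0 for 9 genes (and for 9295 of all 17875 genes) and reached −0.30 for Mcm5, with 0 of 10 at an adjusted or an unadjusted p under 0.05 (edgeR, and 0 of 10 adjusted with DESeq2), where 0% of all genes passed adjusted and 2.71% unadjusted. The calls in 5 genes of NT+/+ mice and 9 of NT-/- mice are therefore not shown to be different responses.

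Mice of 1 group differed in the licensing genes, and the spread followed the number in the file names for some numbers and not for others. Every mouse with a sex label was female at numbers 1, 2 and 4 and male at numbers 3 and 5. The number therefore fixes sex, a block on it takes in sex, and their parts in the spread were not tested. The 4 mice with the number 2 were below their groups in every group, with mean log2 deviations over the 10 genes of −0.27 (NT+/+ AL), −0.07 (NT-/- AL), −0.12 (NT+/+ Fast) and −0.17 (NT-/- Fast). NT+/+ AL replicate 2 and NT-/- Fast replicate 2, of these 4, were below their group's mean in all 10 genes, as was NT+/+ Fast replicate 4 (mean deviation −0.25). NT+/+ AL replicate 3 (0.22), NT+/+ AL replicate 5 (0.07) and NT-/- AL replicate 3 (0.07) were above it in all 10. Mice with the number 4 went both ways, at −0.11 (NT+/+ AL), 0.07 (NT-/- AL), −0.25 (NT+/+ Fast) and −0.01 (NT-/- Fast). Those with the number 3 were at 0.22 (NT+/+ AL), 0.17 (NT+/+ Fast) and 0.01 (NT-/- Fast). Mice with the number 1 lay between 0.00 and 0.18, and those with the number 5 between −0.01 and 0.09. The 6 ring subunits varied together most closely. Over the deviations of the 19 mice from their group means, Pearson's r between pairs of subunits was between 0.82 and 0.95 (median 0.90, 15 pairs), and over all 45 pairs of the 10 genes the median was 0.69. Mcm10 was least like the others, with a median r of 0.40 over its 9 pairs. These r values come from the same 19 libraries, which share file-name numbers across groups and so are not 19 independent points, and carry no test, and the members' mean had an r of 0.18 with log2 library size.

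**Figure D4:**
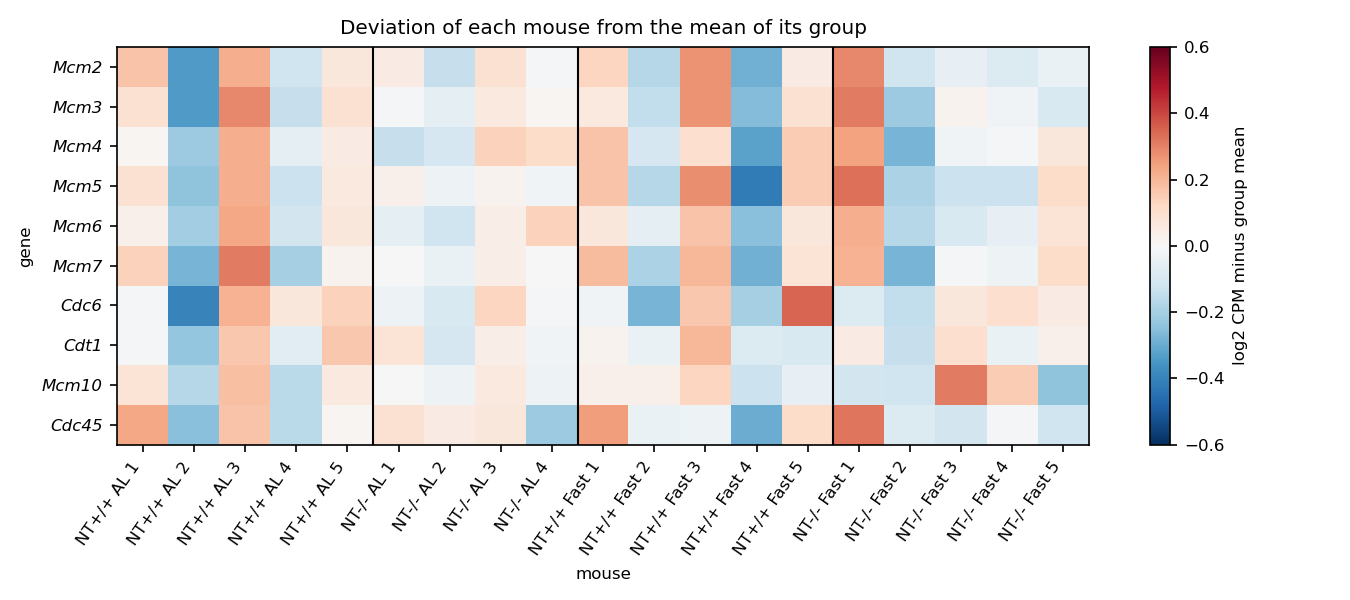
Deviation of each mouse (x axis) from the mean of its group for each gene (y axis), as log2 CPM on a color scale, with lines between the groups. Whole columns share a color: NT+/+ AL replicate 2, NT+/+ Fast replicate 4 and NT-/- Fast replicate 2 are below their groups in all 10 genes, and NT+/+ AL replicates 3 and 5 and NT-/- AL replicate 3 are above in all 10.

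Among the 13060 genes with an average of at least 1 log2 CPM, the 6 outside the set whose deviations were most like the mean of the 10 genes were Rbm28 and Ahsa1 (r = 0.96 each), Nme1 (0.94), and Nup85, Uhrf1 and Dhx37 (0.91 each), over 19 mice. Rbm28 and Dhx37 are known for ribosome assembly, Ahsa1 is an activator of the Hsp90 chaperone, Nme1 makes nucleoside triphosphates, Nup85 is part of the nuclear pore and Uhrf1 guides maintenance of DNA methylation at the fork. In all 240 genes exceeded an r of 0.80. Over all genes ranked the median r was 0.07. By list, the median r was 0.71 for the clamp, loader and maturation genes, 0.53 for the polymerases and primase, 0.53 for the licensing regulators, 0.50 for the firing and fork genes, 0.01 for the origin recognition complex, 0.63 for Paneth cell, 0.51 for stem cell and 0.19 for dividing cell markers, −0.40 for enterocyte and −0.54 for T cell markers. These values describe the spread within groups and not the change with fasting.

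Upstream of the ring lies the origin recognition complex. In each genotype 2 of its 6 genes fell with fasting and 0 rose (10.4% and 12.6% of all genes fell), with medians of −0.18 in NT+/+ and −0.16 in NT-/- mice. Orc1, its cell cycle regulated ATPase, fell in both, by 0.59 on the log2 scale (SE 0.18, edgeR adjusted p = 0.0241) and by 0.87 (SE 0.20, edgeR adjusted p = 0.00268). Orc4 passed in NT+/+ mice alone, at −0.39 (edgeR adjusted p = 0.0343, against −0.16 and 0.414 in NT-/- mice), and Orc6 in NT-/- mice alone, at −0.32 (edgeR adjusted p = 0.0378, against −0.16 and 0.307 in NT+/+ mice), and neither difference between the genotypes passed (edgeR adjusted p = 1 for the 6 genes). Of the 8 licensing regulators only Gmnn fell, by 0.31 (SE 0.10, edgeR adjusted p = 0.0281) in NT+/+ and 0.38 (SE 0.11, edgeR adjusted p = 0.0129) in NT-/- mice. The ratio of Cdt1 to Gmnn per length was 0.817 ± 0.0736 (SD, n = 5) in NT+/+ AL and 1.05 ± 0.121 (SD, n = 5) in NT+/+ Fast mice, and 0.769 ± 0.0729 (SD, n = 4) in NT-/- AL and 1.13 ± 0.156 (SD, n = 5) in NT-/- Fast mice, with every fasted mouse above the fed mice of its genotype. Dtl and Skp2, which mark Cdt1 for degradation, were at −0.24 (edgeR adjusted p = 0.174) and −0.23 (0.296) in NT+/+ mice and −0.27 (0.145) and −0.42 (0.0617) in NT-/- mice. Mcm8, a paralog used in DNA repair, fell in both genotypes (log2 fold change −0.69, edgeR adjusted p = 0.00114, and −0.66, edgeR adjusted p = 0.00209), while its partner Mcm9 was at −0.10 (0.421) and −0.06 (0.686).

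Downstream of licensing, 7 of 15 origin firing and fork genes fell in NT+/+ mice and 9 of 15 in NT-/- mice, 8 and 9 of 12 polymerase and primase genes, and 9 and 9 of 15 genes of the sliding clamp, its loader and Okazaki fragment maturation. Over the 58 genes of the 6 replication lists 28 fell and 0 rose in NT+/+ mice (median −0.28), where 10.4% of all genes fell, and 31 fell and 0 rose in NT-/- mice (median −0.34), where 12.6% of all genes fell. The GINS genes, whose products bind Cdc45 in the active helicase, included Gins3 at −0.86 (edgeR adjusted p = 0.00111) in NT+/+ and −0.88 (0.00133) in NT-/- mice and Gins1 at −0.59 in both (0.00787 and 0.0103). Gins2 (−0.29 and −0.15, edgeR adjusted p = 0.0809 and 0.422) and Gins4 (−0.13 and −0.06, edgeR adjusted p = 0.42 and 0.745) passed in neither genotype and were named after their values were seen. Recql4, a helicase of origin firing, fell in NT-/- mice (−0.65, edgeR adjusted p = 0.000687) and was at −0.29 (0.0771) in NT+/+ mice. Pola1, the catalytic subunit of the polymerase that starts new strands, fell by 0.83 (edgeR adjusted p = 1.48e-05) in NT+/+ and by 0.92 (7.49e-06) in NT-/- mice, and the leading strand polymerase genes Pole (−0.42 and −0.61, edgeR adjusted p = 0.00114 and 5.1e-05) and Pole2 (−0.77 and −0.82, edgeR adjusted p = 0.000246 and 0.000182) fell as well. The clamp Pcna was lower by similar amounts in both (−0.48 and −0.50, edgeR adjusted p = 0.00156 and 0.00144), as was its loader subunit Rfc2 (−0.37 and −0.42, edgeR adjusted p = 0.00338 and 0.00185), and the ligase Lig1 fell by 0.45 (edgeR adjusted p = 0.0158) and 0.67 (0.00127). Between the genotypes 0 of the 58 genes passed in fed or in fasted mice (edgeR adjusted p), with 0 and 9 at an unadjusted p under 0.05, the 9 all lower, where 4.47% of all genes were lower unadjusted in fasted mice.

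**Figure D5:**
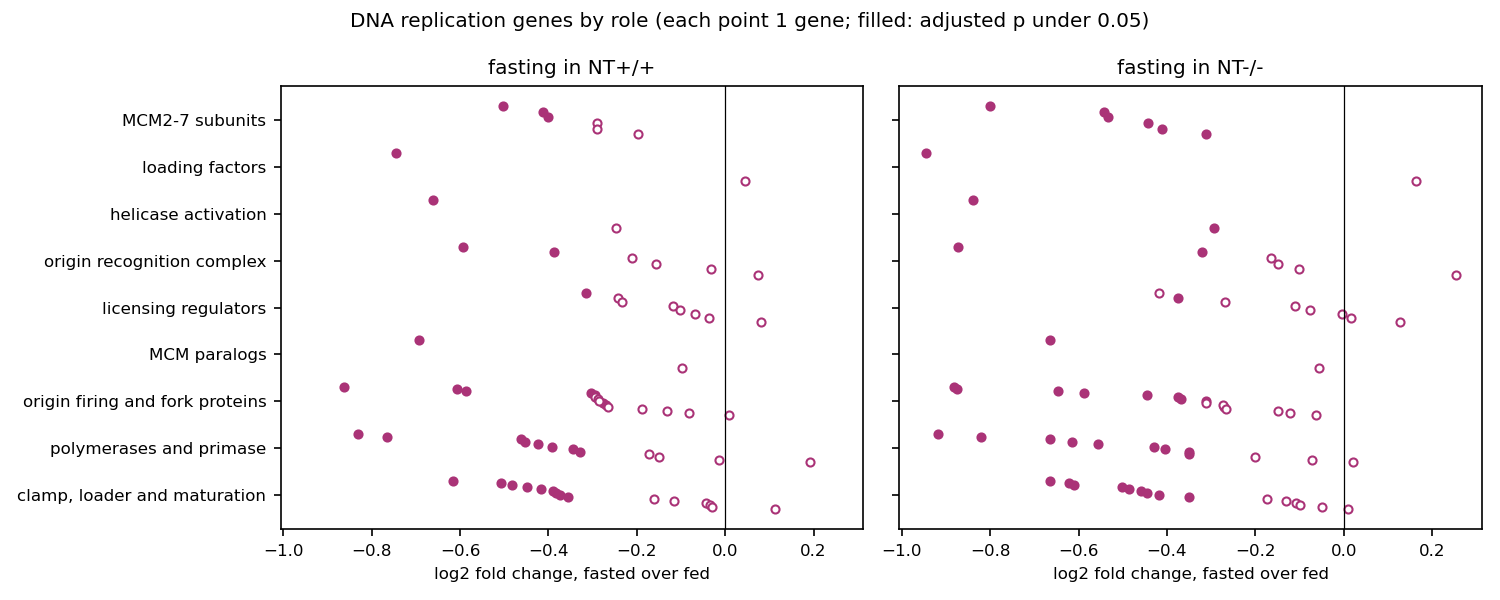
Log2 fold change with fasting (x axis) for each DNA replication gene, grouped by role (y axis), in NT+/+ mice (left) and NT-/- mice (right), with filled points at an edgeR adjusted p under 0.05. Filled points lie left of 0 in every group, and the licensing regulators hold 1 filled point of 8 genes in each genotype, Gmnn.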

How the data were processed

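RNA from crypts of 19 mice was depleted of ribosomal RNA and sequenced as single-end reads. The authors trimmed reads with Trimmomatic 0.39 and ran RSEM on Ensembl transcripts of GRCm38, and the RSEM version, strand setting and filter on low counts are not given in the sources used here. The authors deposited, per gene and mouse, RSEM's expected count (estimated, not normalized), which was rounded here, and its effective length in bases. The deposited TPM column, RSEM's length- and depth-scaled level, was used as an alternative for subunit shares, and FPKM was not used. Gene IDs were matched to GENCODE M21 (55227 of 55487).

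Counts were scaled with TMM in edgeR 4.0.16 (R 4.3.3), filtered with filterByExpr (17875 genes tested) and fitted in 1 quasi-likelihood model of the 4 groups (15 residual degrees of freedom), with Benjamini-Hochberg adjustment over all genes tested at 0.05. A standard error is the log2 fold change over the square root of F. Per-length levels are CPM divided by effective length. The scripts were tested on simulated data. The members and lists were chosen with earlier results of these data known. Named were the 10 members, the 2 genes of smallest p per pathway list and fasting comparison, Gmnn, the 6 genes most like the members' mean, and Nts.

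Groups came from the titles. The labels do not say what the numbers in titles and file names stand for. The study describes the fed controls of its fasting experiments as littermates of matched sex and age, without naming these numbers. The main fit did not use such matching. Deviations of mice with the same file-name number had an r above 0 in every pair (lowest r 0.117, means 0.230 to 0.271). Pairs with different file-name numbers had means of −0.067 to −0.058, with single pairs up to 0.204. Deviations of mice with the same title number correlated at 0.165 or more for fasting in NT+/+ and 0.124 or more for fasted NT-/- against NT+/+ mice, and down to 0.006 and −0.065 in the other comparisons. Alternatives were other scaling, DESeq2 1.42.0, other filters, replicate blocks, sex (without the mouse that has no sex label), other grouping of 1 mouse, fewer groups in the fit and leaving out each mouse. Precision is limited by 4 or 5 mice per group and library totals of 9059418 to 35068669 counts.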

Additional observations from a re-analysis of the deposited data

Results flagged for a closer look

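Over 40 sets of a gene and a group, 3 had a mouse far from the rest of its group by Dixon's ratio of the gap to the range, where chance gives about 1 in 20. In NT-/- Fast mice the highest Mcm2 value, 58.1 CPM in replicate 1, had a ratio of 0.81. The same mouse had the highest Cdc45 value of that group, 13.0 CPM, with a ratio of 0.756. In NT-/- AL mice the lowest Cdc45 value, 16.1 CPM in replicate 4, had a ratio of 0.872.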

How the results depend on the processing

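The number of the 10 genes called with fasting in NT+/+ mice, 5 as reported, was 8 with the replicate block of the titles, 9 with the replicate block of the file names (Mcm6 at an adjusted p of 0.05 after rounding), and between 5 and 8 when 1 mouse was left out. In NT-/- mice 9 were called as reported and between 7 and 9 when 1 mouse was left out, with losses in Mcm6 and Mcm10, and the replicate block changed no call in that or in the genotype comparisons. Between the genotypes and for the difference of the fasting effects 0 genes were called under every alternative run. Over the log2 fold changes of single genes, 15 gained and 15 lost a call under 1 alternative each time, all with fasting and all in Mcm2, Mcm6, Mcm7 or Mcm10, and 11 values reversed near 0. Cdt1 with fasting in NT+/+ mice was −0.01 without NT+/+ AL replicate 2 and −0.01 without NT+/+ Fast replicate 3, with a range of −0.01 to 0.09 when 1 mouse was left out. Cdt1 in fasted NT-/- against NT+/+ mice was 0.03 without NT+/+ Fast replicate 3 and 0.01 without NT-/- Fast replicate 2 (range −0.05 to 0.03). Cdc45 in fed NT-/- against NT+/+ mice was 0.00 with no scaling factor, 0.04 without NT+/+ AL replicate 1, 0.02 without NT+/+ AL replicate 3 and 0.04 without NT-/- AL replicate 4 (range −0.08 to 0.04). For the difference of the fasting effects Mcm10 was 0.00 with sex as a covariate, a fit that also leaves out NT-/- Fast replicate 5, and 0.01 without that mouse alone (range −0.13 to 0.01), and Cdc6 was 0.03 with the mouse of disagreeing labels grouped as NT-/-. The cause was not tested. The TPM column left the subunit shares within the spread between mice.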
